A study of Danio rerio with 15 samples.

Results

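The genes described here are cdx1a, cdx1b and cdx4, the caudal-type homeobox genes of the zebrafish found in these tables, and evx1, a homeobox gene of the even-skipped family. They were picked because their counts were higher in actl6a mutants than in siblings, so their difference between genotypes is given as a description, without a test. All 4 were found among 33298 accessions, each through a single RefSeq entry: NM_131249.2 for evx1, NM_212836.3 for cdx1a, NM_001098762.1 for cdx1b and NM_131109.2 for cdx4.

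Transcripts were counted in pronephric duct, the paired tube that drains the larval zebrafish kidney, at 72 h post fertilization (hpf). The 7 sibling libraries carry the genotype label WT and the 8 mutant libraries the label actl6a knockout. The product of actl6a belongs to SWI/SNF complexes, which remodel chromatin, and the series concerns them in cilia and in kidney development. All fish came from incrosses of a CRISPR/Cas9 mutant line carrying GFP under the Na,K-ATPase alpha1A4 promoter, which marks pronephric epithelium; whether heterozygotes were among the siblings is not stated. Embryos were taken 15 to a group, digested with collagenase, and about 10 fluorescent duct fragments were picked by eye, so that cells of attached tissue could be collected too. Nothing says that the libraries of a group came from separate clutches, so p-values measure the spread between these libraries. Each genotype was sequenced under its own index, so that an effect of the index cannot be told apart from one of the genotype.

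Cdx proteins bind DNA through a homeodomain. In vertebrate embryos they act in the tail bud and hindgut, where they switch on hox genes of posterior identity. In zebrafish, loss of cdx4, the gene mutated in kugelig, shortens the posterior body, and cdx4 acts together with cdx1a in placing the pronephros along the trunk. Zebrafish cdx1b acts in endoderm and in the intestinal epithelium. evx1 is known from the tail bud, from a class of spinal interneurons and from the joints of the fin rays.

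Total counts ran from 1583052 to 4013852 per library, with a median of 2078338. A count of 0 allows up to 3 counts, or 0.747 to 1.90 CPM, the unit that sets counts relative to the library total. Such limits cover counting error only and leave out the normalization factors used for the gene levels below. The number of accessions detected was 25684 to 27413 in mutant replicates 4, 5, 6 and 8, 18188 to 21970 in mutant replicates 1, 2, 3 and 7, and 18841 to 23992 in siblings. Mutant replicates 4, 5, 6 and 8 also had higher totals, at 2623014 to 4013852, than mutant replicates 1, 2, 3 and 7, at 1583052 to 2274156. Among siblings replicate 1 had both the highest total, 3084051, and the most accessions, 23992. How far depth accounts for the number detected was not tested. Because mutant replicates 4, 5, 6 and 8 stood apart in these and other measures, values are given below for both sets of mutant libraries. The targeted gene, actl6a, had a sibling mean of 84.2 ± 10.9 CPM (SD, n = 7) and a mutant mean of 24.9 ± 11.5 CPM (SD, n = 8), with no overlap.

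The 4 genes were low in sibling ducts and, apart from 1 library in cdx4, higher in every mutant library than the sibling mean. In 3 of them, evx1, cdx1a and cdx1b, all 8 mutant libraries lay above all 7 siblings. Over the 12914 accessions tested the same held for 203, or 1.57%. Since the genes were chosen for this contrast, nothing is read from that count.

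evx1 stood at 2.40, 1.04, 22.8, 5.01, 0.665, 2.44 and 19.1 CPM in sibling replicates 1 to 7. In mutant replicates 1 to 8 it stood at 47.99, 80.9, 134.2, 70.8, 79.95, 79.4, 68.2 and 75.6 CPM. Siblings 3 and 7 were higher than the other siblings, yet below the lowest mutant. The means were 7.63 ± 9.25 CPM (SD, n = 7) and 79.6 ± 24.5 CPM (SD, n = 8), and the fitted log2 fold change was 3.44 (SE 0.44), a fold of 10.8. Within mutants evx1 was the least variable of the 4, with an SD of 30.8% of its mean.

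cdx1a, one of the caudal genes of the early posterior body, had 4.21, 6.74, 5.96, 6.26, 8.64, 3.42 and 8.03 CPM in sibling replicates 1 to 7, a narrow range. Mutant replicates 1 to 8 had 24.4, 20.2, 9.97, 70.8, 64.3, 58.4, 32.8 and 66.5 CPM. The lowest mutant, replicate 3, was just above the highest sibling, replicate 5. The means were 6.18 ± 1.89 CPM (SD, n = 7) and 43.4 ± 24.1 CPM (SD, n = 8), with a fitted log2 fold change of 2.92 (SE 0.43).

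cdx1b, the caudal gene known from the intestine, was close to undetected in siblings. It had 0 counts in 4 sibling libraries, and 5, 1 and 2 counts in sibling replicates 3, 6 and 7. Those 5 and 2 counts fell in the same libraries in which evx1 was highest among siblings. In mutant replicates 1 to 8 the level was 25.1, 39.1, 67.1, 241.5, 228.2, 169.1, 78.5 and 248.4 CPM, and the mean was 137.1 ± 94.9 CPM (SD, n = 8). The fitted log2 fold change was 7.91 (SE 0.77), but the sibling mean of 0.601 CPM lies below the floor and the fitted size depends on the prior count. From summed counts, 3444 of 20907931 in mutants against 8 of 14987901 in siblings, the ratio was 309 with an exact 95% interval of 156 to 715 for counting error alone. Summed counts give deeper libraries more weight, and mutant replicates 4, 5, 6 and 8 held 976, 845, 411 and 821 of the mutant counts. The fitted fold was 241.

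cdx4 was at 0.902, 6.22, 8.13, 2.50, 16.6, 4.89 and 5.52 CPM in sibling replicates 1 to 7. Mutant replicates 1 to 8 had 0, 34.2, 22.2, 61.6, 52.1, 69.9, 15.4 and 64.1 CPM. Here the groups overlapped: mutant replicate 1, with 0 counts, lay below every sibling, mutant replicate 7 lay below sibling replicate 5, and the other 6 mutants lay above all siblings. The means were 6.40 ± 5.10 CPM (SD, n = 7) and 39.95 ± 25.8 CPM (SD, n = 8), and the fitted log2 fold change was 2.89 (SE 0.59). Mutant replicate 1 had the lowest total of all libraries, where 3 counts equal 1.90 CPM of the library total. Its normalization factor was 0.867, so on the scale of the levels given here the limit of its cdx4 level was somewhat higher than that.

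**Figure D1:**
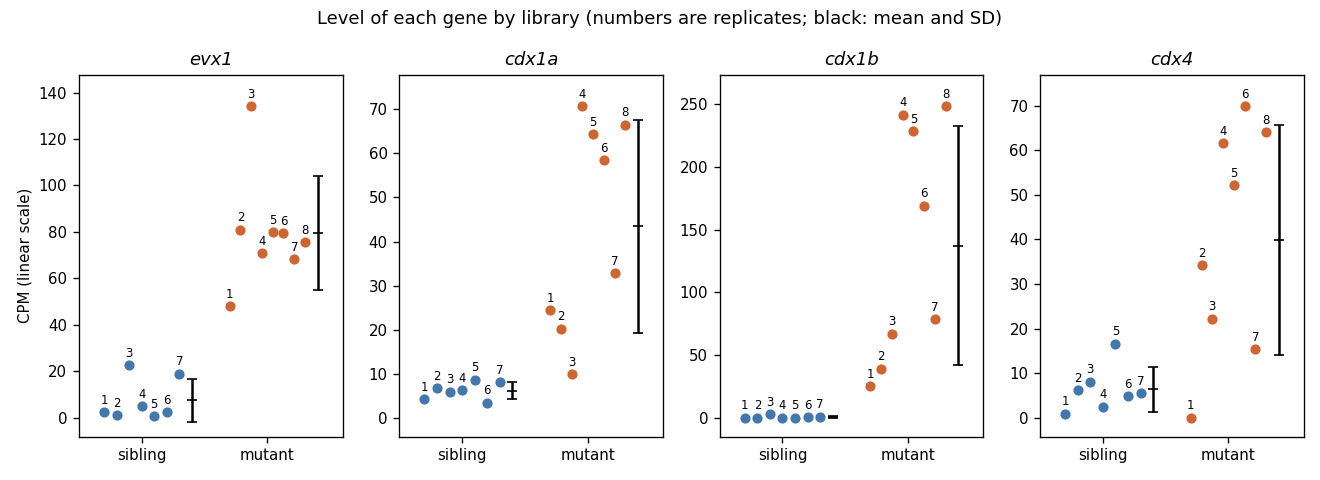
CPM of evx1, cdx1a, cdx1b and cdx4 (vertical axes, linear, a scale for each gene) in the sibling and mutant libraries, with replicate numbers beside the points and the mean and SD in black. In the 3 cdx genes mutant replicates 4, 5, 6 and 8 lie above the other mutants, whereas in evx1 they lie between 70.8 and 79.95 CPM, inside the range of the others.

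Among mutant libraries the 3 cdx genes shared a split that evx1 did not show. In mutant replicates 4, 5, 6 and 8 cdx1b averaged 221.8 CPM against 52.4 CPM in mutant replicates 1, 2, 3 and 7, a ratio of 4.23. The same ratio was 2.97 for cdx1a, 3.45 for cdx4 and 0.923 for evx1. For each cdx gene the lowest of replicates 4, 5, 6 and 8 exceeded the highest of the others, at 58.4 against 32.8 CPM in cdx1a, 169.1 against 78.5 CPM in cdx1b and 52.1 against 34.2 CPM in cdx4. These sets of mutant libraries were formed after the values were seen, and the contrast between them was not tested.

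Fitted without mutant replicates 4, 5, 6 and 8, evx1 kept a log2 fold change of 3.48. The values were 1.79 for cdx1a, 6.47 for cdx1b and 1.66 for cdx4. In those 4 remaining mutants evx1, cdx1a and cdx1b were above every sibling in 4 of 4 libraries and cdx4 in 2 of 4.

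The counts of a cdx gene relative to evx1 within one library do not depend on how libraries are scaled to each other. They do not account for transcript length, so they are compared between libraries only. For cdx1b the ratio of counts to those of evx1 was 0.523, 0.483 and 0.500 in mutant replicates 1, 2 and 3, 1.15 in replicate 7, and 3.41, 2.85, 2.13 and 3.28 in replicates 4, 5, 6 and 8. As a share of the summed counts of cdx1b and evx1, that is 32.6% to 34.3% in the first 3, where exact 95% intervals spanned 25.1% to 44.6%, and 68.05% to 77.3% in the last 4, where they spanned 64.2% to 79.6%. The cdx1a ratio ran from 0.0743 in replicate 3 to 0.508 in replicate 1 among replicates 1, 2, 3 and 7, and from 0.736 to 1.00 in the others. The cdx4 ratio ran from 0 to 0.422 and from 0.652 to 0.881 in the same sets. In siblings, with 1 to 42 counts of evx1 per library, such ratios rested on few counts. The cdx1b share was 10.6% (exact 95% interval 3.55% to 23.1%) in sibling replicate 3 and 5.00% (0.611% to 16.9%) in sibling replicate 7. Both intervals lay below those of all mutants, whereas in the other siblings they reached 26.5% or more. cdx1b was chosen for its rise in mutants, so this is a description.

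**Figure D2:**
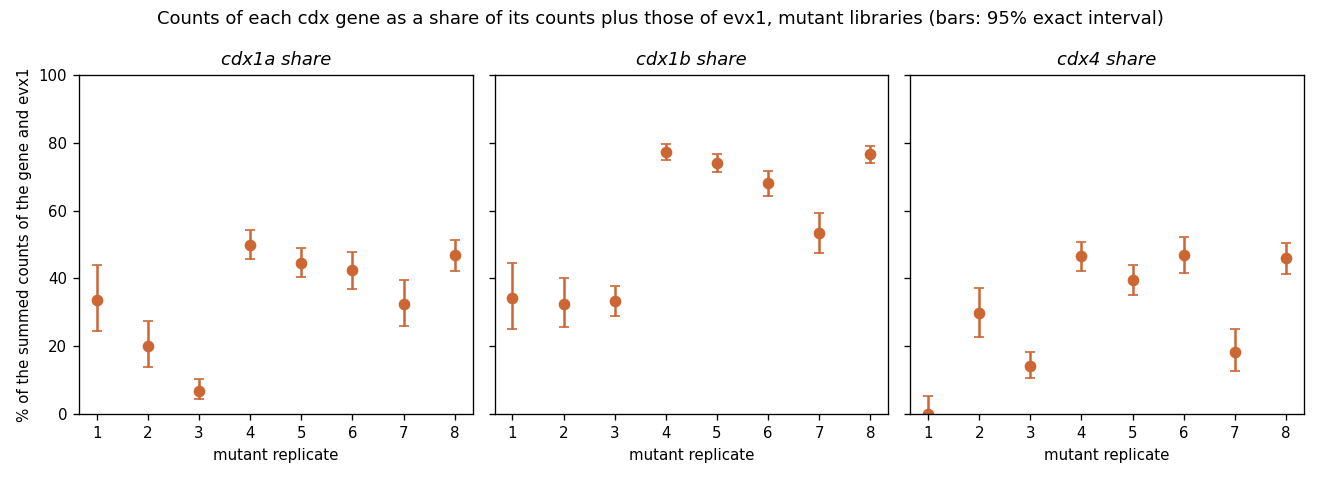
Counts of cdx1a, cdx1b or cdx4 as a percentage of the counts of that gene plus those of evx1 (vertical axis) in mutant replicates 1 to 8 (horizontal axis); bars are exact 95% intervals for counting error. For cdx1b replicates 1 to 3 sit at 32.6% to 34.3%, replicate 7 at 53.5%, and replicates 4, 5, 6 and 8 at 68.05% to 77.3%.

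As a description over 15 libraries, Pearson's r of log2 CPM after removing the group means was 0.683 between cdx1b and cdx4, 0.640 between cdx1a and cdx1b, and 0.489 between cdx1a and cdx4. With evx1 it was -0.065 for cdx1a, 0.110 for cdx4 and 0.462 for cdx1b. Within the 8 mutants alone the values were 0.797 for cdx1b with cdx4, 0.795 for cdx1a with cdx1b and 0.471 for cdx1a with cdx4. With evx1 they were -0.405 for cdx1a, 0.206 for cdx1b and 0.545 for cdx4. Mutant replicate 1, with 0 counts of cdx4 and the lowest evx1 among mutants, weighs heavily on the value of evx1 with cdx4. The mutant values were not computed without that library, so their order is not read further. The pooled value of evx1 with cdx1b rests largely on siblings, where r was 0.852 and cdx1b had at most 5 counts. The points share library depth and the make-up of each fragment sample.

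In mutant replicates 4, 5, 6 and 8 summed marker shares of blood, vessels and intestine were higher than in the other mutants, and that of duct lower. Those of muscle, neurons, epidermis and liver overlapped between these sets. The share of 6 detected duct genes, among them atp1a1a.4 and the cadherin gene cdh17, summed to 2636 to 4260 CPM in siblings, 3395 to 4704 CPM in mutant replicates 1, 2, 3 and 7, and 1518 to 2032 CPM in mutant replicates 4, 5, 6 and 8. The other 5 genes of that list were not matched in the tables. The high cdx values thus lay in the libraries with the lowest duct share, while evx1 was at 47.99 to 134.2 CPM where the duct share was as high as in siblings or higher. Mutant replicates 4, 5, 6 and 8 also had the highest totals among mutants, and the part of depth in their duct share was not tested. In bulk tissue fewer cells of a type and less RNA per cell cannot be told apart.

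The erythrocyte list, with 10 of 11 genes matched, was at 2504 to 5967 CPM in mutant replicates 4, 5, 6 and 8 and at 510.9 to 709.4 CPM in the other mutants. In siblings it was at 82.8 to 140.2 CPM apart from sibling replicate 1, at 2898 CPM. The endothelium list, 9 of 13 genes, was at 500.2 to 1063 CPM, 108.0 to 229.0 CPM and 69.0 to 119.7 CPM in the same sets, with sibling replicate 1 at 820.7 CPM. That sibling had 0 counts of cdx1b, 4.21 CPM of cdx1a, 0.902 CPM of cdx4 and 2.40 CPM of evx1. Of the lists described below, its summed tailbud share was the highest among siblings, at 617.7 CPM against 166.1 to 369.1 CPM. Its gut regulator share was the lowest, at 531.1 CPM, and its posterior hox share, 667.3 CPM, lay within the range of the other siblings. The gene hnf1ba, in both the gut regulator and the duct list, had 0.301 CPM in its lowest sibling against a sibling median of 219.5 CPM. The part of hnf1ba in that low gut regulator share was not tested. The part of blood and vessels in the cdx levels was not tested beyond a fit with the summed share of both lists as a term. It gave log2 fold changes of 1.99 for cdx1a, 6.52 for cdx1b, 2.05 for cdx4 and 3.70 for evx1.

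Summed shares of intestinal and of hormone genes were higher in all mutants than in any sibling. The intestinal epithelium list, 22 of 30 genes matched, had a summed share of 460.1 to 769.8 CPM in siblings, 924.3 to 1085 CPM in mutant replicates 1, 2, 3 and 7, and 1263 to 4921 CPM in the other mutants. The enteroendocrine list of gut and pancreatic hormones, 12 of 14 genes, was at 94.99 to 222.0 CPM in siblings and 283.6 to 577.7 CPM in mutants. Of the intestinal genes apobb.1, mep1a.2, dgat2, mogat2 and slc26a3.2 were at 0 in all siblings. The exocrine pancreas list, 10 of 13 genes, was at 12.1 to 33.7 CPM in siblings and 19.6 to 80.0 CPM in mutants. The liver list, 12 of 13 genes, reached 14.7 to 196.1 CPM and 41.9 to 291.6 CPM.

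Other tissues near the duct were present as well. The epidermis list, 12 of 16 genes, was at 478.7 to 1732 CPM in siblings and 1656 to 6356 CPM in mutants. Skeletal muscle, 13 of 15 genes, ran from 615.6 to 11870 CPM and from 477.6 to 4101 CPM. The neuron list, of interest because evx1 marks spinal interneurons, had 14 of 16 genes. It includes evx2, the paralog of evx1 described below, with at most 5.58 CPM in any library. The neuron list summed to 27.6 to 48.1 CPM in siblings apart from sibling replicate 1, at 91.1 CPM. No mutant lay above that library. Mutant replicates 2, 3, 4, 5, 6 and 8, at 50.8 to 80.0 CPM, lay above all the other siblings, and mutant replicates 1 and 7 did not. Among mutants replicate 1 was lowest in both the neuron share and evx1. Replicate 3 was highest in both, with 80.0 CPM of neuron genes and 134.2 CPM of evx1. Replicate 7, with 39.45 CPM of neuron genes, had the second-lowest evx1, at 68.2 CPM. In mutant replicates 2, 4, 5, 6 and 8 the orders differed. There replicate 5 had the lowest neuron share, 50.8 CPM, but 79.95 CPM of evx1. Replicate 4 had 70.01 CPM of neuron genes and the lowest evx1 of these, at 70.8 CPM. Sibling replicate 1 had the highest neuron share of all libraries, at 91.1 CPM, and 2.40 CPM of evx1. Markers at 0 in all siblings were gata1a of erythrocytes, elavl4 of neurons, pou2f3 of epidermis and cela1.1 of exocrine pancreas, together with ghrl, vipb and nmbb among the hormones. In mutants the muscle genes myhz1.1, myhz2 and desma were at 0. How far any of these tissues contributes to the homeobox counts was not tested.

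**Figure D3:**
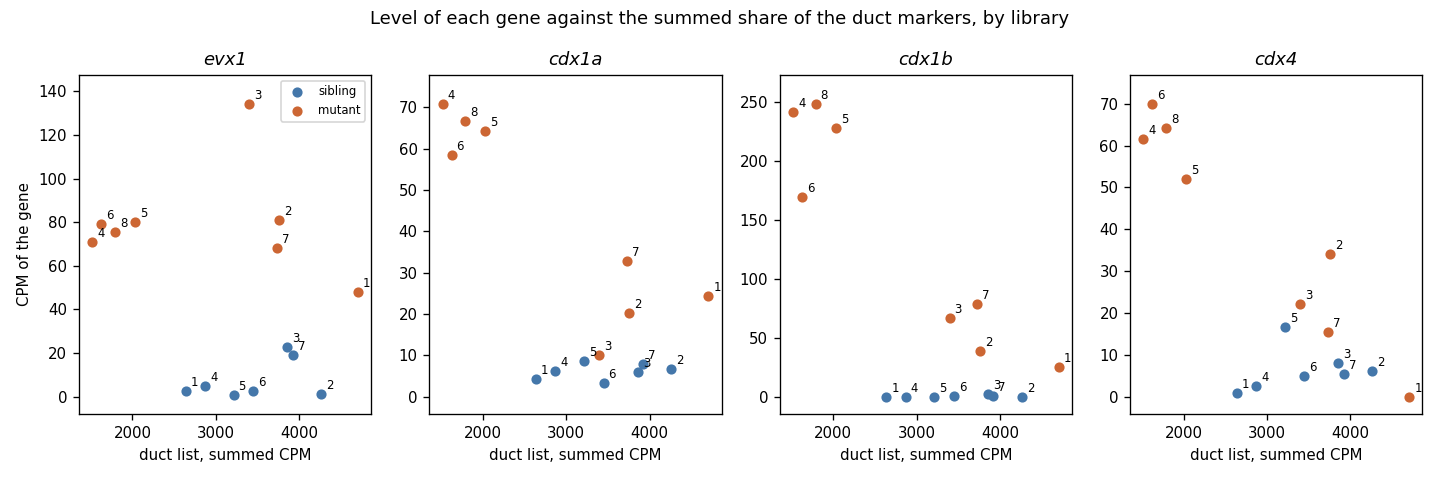
CPM of each gene (vertical axes) against the summed CPM of the matched duct markers (horizontal axes) in siblings (blue) and mutants (orange), with replicate numbers. Mutant replicates 4, 5, 6 and 8 lie at 1518 to 2032 CPM on the horizontal axis, where the cdx genes are highest, while evx1 is as high at 3395 CPM and above.

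Relatives of these genes were rare in the libraries. evx2, the closest paralog of evx1, had 4 counts in all siblings together and 58 in all mutants, with 0 in mutant replicates 1 and 3 and at most 5.58 CPM in any library, and was too low to be tested. eve1, another even-skipped relative, had 2 counts in all, both in mutants. gsx1 and gsx2, which form the ParaHox group with pdx1 and the cdx genes, had 15 and 13 counts in siblings and 62 and 135 in mutants. Of the mutant counts 33 of gsx1 and 102 of gsx2 lay in mutant replicate 3 alone, and neither gene was tested. pdx1, a regulator of pancreas and duodenum, averaged 16.8 ± 8.39 CPM (SD, n = 7) among siblings and 31.7 ± 17.5 CPM (SD, n = 8) among mutants, and its difference of 0.87 on the log2 scale did not pass the test (SE 0.41, edgeR adjusted p = 0.142). Its order among mutants was not that of the cdx genes: it was at 34.4 to 61.7 CPM in replicates 1, 2, 3 and 7 and at 35.1, 14.1, 11.9 and 13.6 CPM in replicates 4, 5, 6 and 8. Without the latter 4 libraries it was called, at 1.40 (edgeR adjusted p = 0.0397), and the same happened with the blood and vessel share as a term, at 1.78 (adjusted p = 0.0256).

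The question of whether genes beside the members changed too was taken up through gene order in the RefSeq assembly GRCz12tu, used for order only. The nearest tested genes were taken, up to 3 on each side. evx1 sits at the end of a hox cluster, and the 3 genes on the hox side were all higher in mutants. hoxa13a was at 3.31, 1.04, 9.76, 3.34, 1.33, 0.978 and 13.04 CPM in sibling replicates 1 to 7, so that it too was highest in siblings 3 and 7. In mutant replicates 1 to 8 it was at 8.86, 56.5, 82.96, 58.4, 82.4, 51.8, 44.1 and 61.4 CPM, above every sibling in 7 of 8. It changed by 3.62 on the log2 scale (SE 0.47, edgeR adjusted p = 8.47e-05). hoxa11a changed by 3.71 (SE 0.51, edgeR adjusted p = 4.76e-05) and hoxa9a by 1.32 (SE 0.31, edgeR adjusted p = 0.00815). The sibling mean of hoxa11a, 1.98 CPM, was near the floor, so its size is uncertain. The calls of hoxa13a and hoxa11a held in every alternative fit that tested them, but that of hoxa9a was lost without mutant replicates 4, 5, 6 and 8 (0.66, adjusted p = 0.277), with detected accessions as a term and with the blood and vessel share as a term. On the other side hibadha, at -0.16, tax1bp1a, at -0.17, and jazf1a, at 0.82, did not pass the threshold (adjusted p = 0.572, 0.441 and 0.0908), though jazf1a did so without mutant replicate 1, at 0.89, and with voom quality weights.

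Around cdx1b and cdx4 0 of 6 tested neighbours each passed the threshold, against 19.2% of all tested accessions in either direction. Those of cdx1b, irs4a, dkc1, pdlim4, ndufa2, ik and fgf1b, had log2 fold changes of -0.29 to 0.53. Those of cdx4, slc25a5, slc25a43, chic1, dlg3, pdzd11 and stard14, had -0.51 to -0.08. The signs of most of these small values turned in at least 1 alternative fit. With voom quality weights irs4a and ndufa2 beside cdx1b, and slc25a43 and pdzd11 beside cdx4, were called, pdzd11 at -0.66 and also without mutant replicate 1 or 2, and slc25a5 was called, at 0.34, with detected accessions as a term. Around cdx1a 3 of 5 passed, in both directions. fgf18a, a fibroblast growth factor, fell from 69.8 ± 12.7 CPM (SD, n = 7) to 32.1 ± 16.3 CPM (SD, n = 8; edgeR adjusted p = 0.00896). The glutathione S-transferase genes gstp1.1 and gstp1.2 rose by 3.04 (SE 0.68) and 0.63 (SE 0.15). The calls of all 3 were lost without mutant replicates 4, 5, 6 and 8, where fgf18a was at -0.63 (edgeR adjusted p = 0.0906), gstp1.1 at 1.89 and gstp1.2 at 0.35, and with either of the terms just named. The latter are close paralogs, and their reads may have been divided unevenly. Several of the cdx1a neighbours lie some genes away, as the nearest tested one on one side was the ninth matched gene.

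**Figure D4:**
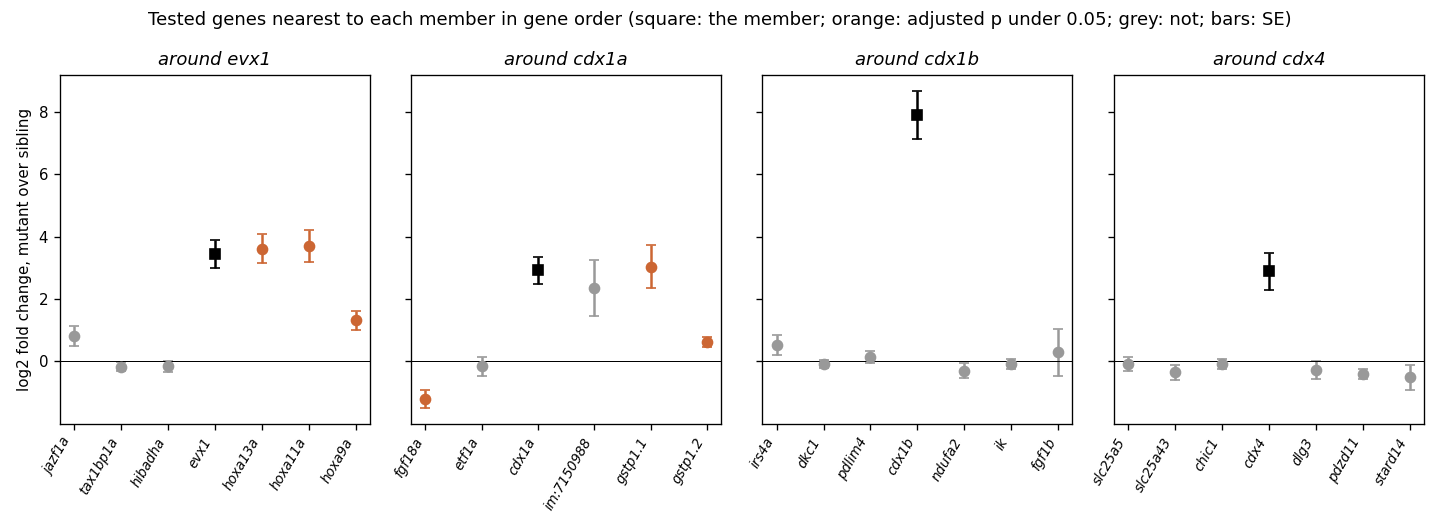
Log2 fold change, mutant over sibling (vertical axis), of each member (black square) and of the tested genes nearest to it on either side in gene order (orange where adjusted p was under 0.05, grey where not); bars are SE. Around evx1 the 3 hox genes on one side are higher, with 1.32 to 3.71, and the 3 genes on the other side are not called.

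Lists of genes that act before, beside or after caudal factors were examined in the fit across all 12914 accessions. In it 13.6% of accessions were higher and 5.54% lower in mutants, and the median log2 fold change was 0.04. Without mutant replicates 4, 5, 6 and 8, 511 of 12887 tested accessions were called. With the blood and vessel share as a term 750 of 12914 were called, and with detected accessions as a term 1281 of 12914. Counts of list genes in these fits, given below, stand beside those totals. Only cdx1a, cdx1b, cdx4 and evx1 were left out of the list counts. Other genes described above stay in them: hoxa13a, hoxa11a and hoxa9a among posterior hox genes, and pdx1 among gut regulators. The tailbud list also holds eve1, which was too low to be tested in the main fit. These lists were drawn up with earlier results on these libraries known. The expression filter could admit genes through their counts in mutants alone, which can raise the counts of higher genes and the medians. With no filter 3017 of 33068 accessions were higher, as were 15 of 23 posterior and 1 of 23 anterior hox genes. The same fit gave 6 of 34 for tailbud, 10 of 25 for gut regulators, 10 of 22 for intestinal epithelium and 1 of 20 for distal duct.

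Posterior hox genes are here those of paralog groups 9 to 13. The posterior and anterior lists were divided by paralog group, and neither is a list of known targets of Cdx proteins. All 23 were matched and 19 tested, of which 13 were higher, 0 lower and 6 not called, with a median log2 fold change of 1.77. hoxd11a rose from 11.8 ± 4.81 CPM (SD, n = 7) to 74.9 ± 31.1 CPM (SD, n = 8), by 2.72 (SE 0.31, adjusted p = 3.05e-05), with all 8 mutants above every sibling. hoxa11b rose by 5.44 (SE 0.81) and hoxa13b by 4.65 (SE 0.60), with 7 of 8 mutants above every sibling in each. hoxa11b was at 6.34 without sibling replicate 4, and hoxa13b at 3.60 without mutant replicates 4, 5, 6 and 8. The sibling mean of hoxa11b was 1.11 CPM, with a median of 0, so its size is uncertain. Among the 18 tested anterior hox genes, of groups 1 to 8, 2 were higher, 0 lower and 16 not called, with a median of 0.11, which ran from -0.15 to 0.49 over the alternative fits. The higher ones were hoxc4a, at 1.84 (SE 0.53), and hoxa5a, at 1.04 (SE 0.32). Their calls were lost in 6 and 12 of 26 alternative fits, including those without sibling replicate 4 or mutant replicate 4. Without mutant replicates 4, 5, 6 and 8, 7 of 17 posterior and 0 of 16 anterior hox genes were called. With detected accessions as a term 13 of 19 posterior and 1 of 18 anterior hox genes were called. The blood and vessel share as a term gave 9 of 19 and 0 of 18.

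The tailbud list holds signals and factors of the growing posterior body, where cdx4 and evx1 are active in the embryo. Of 36 genes 34 were matched and only 14 tested, and 9 of these were higher, 0 lower and 5 not called, with a median of 1.35. Those not called were msgn1, at 0.22, wnt11, at 0.28, lef1, at 0.55, fgf4, at 0.59, and wnt3a, at 0.82. Their edgeR adjusted p-values were 0.112 to 0.775. cyp26a1, which breaks down retinoic acid, was at 19.2, 0.518, 4.34, 9.18, 4.66, 0.489 and 10.0 CPM in sibling replicates 1 to 7. In mutant replicates 1 to 8 the level was 13.3, 46.8, 58.9, 170.5, 188.0, 132.5, 112.9 and 181.8 CPM, so that, like the cdx genes, it was highest in replicates 4, 5, 6 and 8. Between genotypes it changed by 3.90 on the log2 scale (SE 0.56, edgeR adjusted p = 0.000280), and by 2.87 without those 4 libraries. The growth factor genes fgf24 and bmp2b rose by 3.01 (SE 0.43) and 1.95 (SE 0.35), and sall4, a zinc finger gene of early embryonic cells, counted here on the non-coding entry XR_225243.4, by 2.29 (SE 0.52). aldh1a2, which makes retinoic acid, was called at 2.44 (SE 0.75), but the call was lost in 15 of 26 alternative fits, among them those without any one of sibling replicates 2, 3, 5, 6 and 7 or of mutant replicates 4, 5, 6 and 8. Without mutant replicates 4, 5, 6 and 8, 2 of 13 tested genes of this list were called. In that fit bmp2b (1.21, edgeR adjusted p = 0.0929) and sall4 (1.12, edgeR adjusted p = 0.289) lost their calls. The count was also 2 with the blood and vessel share as a term and 3 with the number of detected accessions as a term.

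Gut regulators are the transcription factors and signals beside which cdx1b works in endoderm. Of 30 genes 26 were matched and 15 tested, and 6 were higher, 0 lower and 9 not called, with a median of 0.87. foxa1, a pioneer factor of endoderm, rose from 37.7 ± 25.01 CPM (SD, n = 7) to 120.6 ± 19.6 CPM (SD, n = 8), by 1.70 (SE 0.29, adjusted p = 0.00107), in all 8 mutants above every sibling. gata5 rose by 4.37 (SE 0.72), nr5a2 by 4.49 (SE 0.73) and insm1b, a factor of hormone cells, by 3.82 (SE 0.75). The sibling medians of gata5, nr5a2 and insm1b were 1.63, 0.502 and 0.518 CPM, near or below the floor, so their sizes are uncertain. Single libraries moved these sizes: without sibling replicate 1 nr5a2 was at 6.48 and insm1b at 5.39. Without mutant replicates 4, 5, 6 and 8, 5 of 14 tested genes were called, with gata5 at 2.18 and nr5a2 at 2.87. With detected accessions as a term the count was 7 of 15, and with the blood and vessel share as a term also 7 of 15.

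Intestinal epithelium genes are products of enterocytes, the cells in which caudal factors act after the embryo has formed. Of 30 genes 22 were matched and 11 tested, and 9 were higher, 0 lower and 2 not called, with a median of 2.82. The fatty acid binding protein genes fabp1b.1 and fabp6 had log2 fold changes of 8.36 (SE 0.85) and 6.25 (SE 0.84), the retinol binding protein gene rbp2a 8.14 (SE 1.32) and the apolipoprotein gene apoa4b.1 4.88 (SE 0.84). The first 3 had all 8 mutants above every sibling, and their sibling means of 0.275 to 1.02 CPM were near or below the floor, so their sizes are uncertain. The sibling median of apoa4b.1, 1.67 CPM, was near the floor too. Without mutant replicate 4 fabp6 was at 5.48 and rbp2a at 6.83. Without mutant replicates 4, 5, 6 and 8 the count was 4 of 11 with a median of 0.93, and without sibling replicate 1 the median was 4.34. With detected accessions as a term the count was 6 of 11. With the blood and vessel share as a term it was 2 of 11, and rbp2a and apoa4b.1 were then not called (edgeR adjusted p = 0.0986 and 0.0551).

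The distal duct list holds genes of the distal segments and of the duct of the pronephros, not only of the stretch nearest the hindgut. Of 24 genes 20 were matched and 13 tested, and 1 was higher, 0 lower and 12 not called, with a median of -0.17. That gene was gfra1a, a receptor for GDNF, which rose from 2.09 ± 0.984 CPM (SD, n = 7) to 16.4 ± 5.38 CPM (SD, n = 8), by 3.02 on the log2 scale (SE 0.31, adjusted p = 2.47e-06). All 8 mutants lay above every sibling, and gfra1a was called in all 26 alternative fits, with 2.67 to 3.18. ret, which encodes the signalling partner of gfra1a, was at -0.43 (adjusted p = 0.357). aqp3a, a water channel gene, was at 1.93 (SE 0.71, adjusted p = 0.0688) and passed in 5 of 26 alternative fits. The median of this list turned to 0.25 without mutant replicates 4, 5, 6 and 8, to 0.22 with detected accessions as a term and to 0.43 with the blood and vessel share as a term. In those fits 1 of 16, 2 of 13 and 2 of 13 genes were called. The next values are medians again. With limma voom and quality weights the median was -0.65, and 2 genes were then higher and 6 lower.

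**Figure D5:**
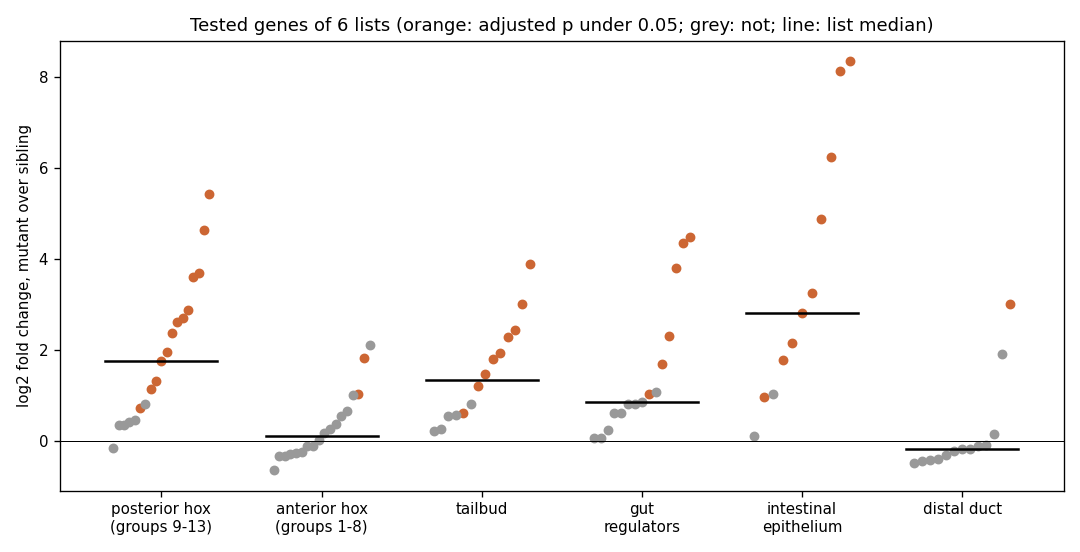
Log2 fold change, mutant over sibling (vertical axis), of the tested genes of 6 lists, in orange where adjusted p was under 0.05 and grey where not, with the list median as a line. The posterior hox, tailbud, gut regulator and intestinal lists have medians of 0.87 to 2.82, and the anterior hox and distal duct lists of 0.11 and -0.17.

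Genes with the most similar pattern among libraries were ranked by Pearson's r of log2 CPM after removal of the group means, over 15 libraries and 9710 tested genes with a symbol and at least 5 CPM on average. The mean shift between genotypes is thereby removed, but a gene near the floor in siblings, as cdx1b was, varies mostly among mutants. The libraries also share depth and tissue make-up, and no p is given. For evx1 the leading genes were hs3st1l2, a heparan sulfate sulfotransferase gene, with r = 0.872, the homeobox gene msx3, with 0.839, and wu:fj19g03, with 0.825. Within mutants alone these were 0.421, 0.645 and 0.636, so much of the likeness came from the siblings. For cdx1b they were ly97.3 (0.931), gucy1a1 (0.926), a subunit gene of soluble guanylate cyclase, and the keratin gene krt92 (0.922), which is in the epidermis list. For cdx1a they were zgc:173548 (0.920), the phosphatase gene pdp2 (0.897) and daam2 (0.865). For cdx4 they were the microRNA entry mir457a (0.901), nectin4b (0.876) and fhl2b (0.876). With a single library left out, mir457a fell to 0.624 and nectin4b to 0.614, so both rest in part on 1 library. Within mutants alone r was 0.892 to 0.986 for the leading 3 genes of each cdx gene. No gene appeared in the leading 3 of more than 1 member.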

How the data were processed

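The authors deposited raw counts per RefSeq accession in 2 tables, one for each sequencing index and genotype, with a column per sample barcode, per the file headers. Per the submitters' processing notes the tools were cutadapt, FastQC, STAR, featureCounts and edgeR and the build was GRCz11; versions and settings are not given in the sources used here. Columns were assigned to samples by barcode. Accessions listed in one table only were given 0 in the other. Symbols came from a RefSeq gene table (GRCz12tu), matching 20439 of 33298 accessions with the version ignored; for each symbol the accession with the highest summed count was used.

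Counts were tested with edgeR 4.0.16 in R 4.3.3: the steps were TMM normalization, the filterByExpr filter by group, a robust, bias-adjusted glmQLFit and glmQLFTest. P-values were adjusted by Benjamini-Hochberg across the 12914 accessions tested, at a threshold of 0.05. Levels are CPM with TMM factors; summed shares are CPM of the library total; log2 CPM used a prior count of 2. SE is the size of the log2 fold change over the square root of F. Alternatives used DESeq2 1.42.0 and limma 3.58.1. The highest count of any accession was 5558 to 6432 in every library, whatever its total, which can lower the CPM of abundant genes in deep libraries.

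The members and lists were chosen with earlier results of these data known. Named genes are the members, actl6a and 5 relatives, up to 4 called genes per list and direction by p-value, and the 3 most similar genes per member. Neighbours, and genes named as not called or beyond the 4 (hoxa13a, hoxa9a, aldh1a2, ret, aqp3a and the tailbud genes not called), were chosen after the data were seen.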

Additional observations from a re-analysis of the deposited data

Results flagged for a closer look

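In 50 groups of libraries (the level of each member and of the 6 fixed genes, and the summed share of each list, in each genotype), Dixon's test at 95% marked 13 highest or lowest libraries as far from the next one. About 2.5 would be marked by chance. The measures share libraries, so these are not 13 independent events.

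Mutant replicate 3 was the highest mutant for evx1, at 134.2 CPM, for gsx1, at 14.96 CPM, and for gsx2, at 46.2 CPM. Sibling replicate 3 was the highest sibling for cdx1b, at 2.71 CPM, which is 5 counts, and for the liver list, at 196.1 CPM. Among siblings gsx1 stood apart in replicate 4, at 3.34 CPM, and gsx2 in replicate 5, at 4.65 CPM, both on fewer than 10 counts.

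Sibling replicate 1 was the lowest sibling for the gut regulator list, at 531.1 CPM, and the highest for the neuron list, at 91.1 CPM, the erythrocyte list, at 2898 CPM, and the endothelium list, at 820.7 CPM. Mutant replicate 4 was the highest mutant for the intestinal epithelium list, at 4921 CPM, and mutant replicate 6 for the epidermis list, at 6356 CPM.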

How the results depend on the processing

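The log2 fold changes of all 4 members stayed positive in every fit. Leaving out one library gave 3.17 to 3.90 for evx1, 2.75 to 3.07 for cdx1a, 7.53 to 8.91 for cdx1b and 2.57 to 3.21 for cdx4. Moves were set against the SD of log2 CPM between libraries of a group, pooled over both genotypes. Those larger than this spread came without mutant replicates 4, 5, 6 and 8 (cdx1a 1.79, cdx1b 6.47) and with a term for the erythrocyte and endothelium share (1.99 and 6.52). For cdx1b the fit with detected accessions as a term gave another (6.62). In these 3 fits cdx4 was at 1.66, 2.05 and 1.84, against 2.89, and cdx1a at 2.14 in the last, moves within that spread. The spread is between single libraries and is not the SE of a fold change, which was 0.59 for cdx4. For cdx4 it includes mutant replicate 1, with 0 counts, so cdx4 was not shown to be steadier than cdx1a. The count of called accessions, 2476, became 5566 with voom quality weights (55.4% of them higher, against 71.1%), 3960 with no filter, 1281 with detected accessions as a term, 1631 with no bias adjustment, 511 without mutant replicates 4, 5, 6 and 8, and 750 with the erythrocyte and endothelium share; with one library left out it was 1621 (without mutant replicate 8) to 3390 (without mutant replicate 1).

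The replicate number as a block gave 1357 calls. Same-numbered libraries correlated at -0.536 to 0.257, so the numbers were not taken as pairs; under the block the posterior hox count was 12, the anterior 0, tailbud 6, gut regulators 5, intestinal 8 and distal duct 2, and evx1, cdx1a, cdx1b and cdx4 had 3.52, 2.64, 7.56 and 2.51.

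With one library left out the called genes numbered 11 to 14 for posterior hox, 0 to 5 for anterior hox, 6 to 9 for tailbud, 5 to 7 for gut regulators, 8 to 12 for intestinal epithelium and 1 to 3 for distal duct. Anterior hox counts were 4 with DESeq2, 7 with voom (5 higher and 2 lower), 1 with detected accessions, 0 without mutant replicates 4, 5, 6 and 8, 0 with the erythrocyte and endothelium share, 4 with no accessions over 1000 counts and 1 with no bias adjustment. Those of distal duct were 8 with voom (2 higher and 6 lower) and 2 with detected accessions, the erythrocyte and endothelium share, or no accessions over 1000 counts. Without mutant replicates 4, 5, 6 and 8 posterior hox had 7, tailbud 2 and intestinal epithelium 4. With the erythrocyte and endothelium share tailbud had 2 and intestinal epithelium 2. Tailbud had 3 with detected accessions, gut regulators 10 with no filter, and intestinal epithelium 3 with no accessions over 1000 counts, since abundant genes were then not tested. The cause of the other moves was not tested. The alternatives on 4 choices (leaving out mutant replicates 4, 5, 6 and 8, the erythrocyte and endothelium share, accessions over 1000 counts, and bias adjustment) were added after the data were seen. For 46 genes named or shown with a test, the tailbud genes not called left aside, 1069 of 1175 values in alternative fits kept direction and call. Of the rest 53 lost the call, 19 gained it and 34 turned. Those that turned belong to 13 neighbours that were not called. With one library left out pdlim4 had -0.06 to 0.21. With detected accessions as a term dlg3 was at 0.09, etf1a 0.31, fgf1b -2.10, hibadha 0.22, ik 0.19, ndufa2 0.10, pdlim4 -0.10, slc25a43 0.03, slc25a5 0.34, stard14 0.07 and dkc1 0.00. Without mutant replicates 4, 5, 6 and 8 they were, in the same order up to stard14, 0.24, 0.35, -2.42, 0.13, 0.10, 0.11, -0.12, 0.08, 0.26 and 0.13, and irs4a and jazf1a were both at -0.01. With the erythrocyte and endothelium share the values for those 10 genes were 0.07, 0.46, -1.07, 0.32, 0.27, 0.24, -0.14, 0.11, 0.50 and 0.20.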
